A study of Mus musculus with 46 samples.

Results

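Rsad2 and Cmpk2 are neighbouring mouse genes that are both switched on by interferons, and their RNA was followed in macrophages grown from mouse bone marrow. The cells had received compounds that act on liver X receptors (LXR) or estrogen receptors. They are 2 of the 24671 genes in the count table and were picked by symbol, with values of these same libraries already known: Rsad2 was higher with ICI and lower with E2 than with Vehicle. Those values therefore describe the genes here and carry no test. RNA sequencing covered 46 libraries in 9 groups, with 19354093 to 30921038 estimated counts per library.

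Of the combined treatments, one paired GSK2033 and 27HC and one paired ICI and 27HC. In a further group GW3965 was joined by a second compound, which stays unnamed because the titles give 27HC for it and the treatment labels give ICI. The single treatments were 27HC (27-hydroxycholesterol, a cholesterol metabolite that binds LXR and estrogen receptors), GW3965 (a synthetic LXR agonist), GSK2033 (a synthetic LXR antagonist), E2 (estradiol) and ICI (fulvestrant, an antagonist and degrader of the estrogen receptor). Each of these 8 groups had 5 libraries, and the Vehicle group, to which they were compared, had 6. The labels give no dose, time, mouse strain, age or genotype, and no stimulus such as interferon or lipopolysaccharide. They also do not say whether libraries came from separate mice or cultures, so every p-value measures only the spread between these libraries, which may be technical.

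Rsad2 encodes viperin, a radical S-adenosylmethionine enzyme with an iron-sulfur cluster. It turns the nucleotide CTP into ddhCTP, a chain terminator that stops some viral RNA polymerases, and it sits on the endoplasmic reticulum and on lipid droplets. Cmpk2 encodes a mitochondrial nucleoside monophosphate kinase that phosphorylates CMP and dCMP, one step on the way to the CTP that viperin uses, and in mouse macrophages it is known for supplying nucleotides for mitochondrial DNA made ahead of NLRP3 inflammasome activation. Both genes are classical interferon-stimulated genes: interferon receptors signal through transcription factors, among them IRF9, that bind a response element in the promoters of such genes. LXR agonists are known to restrain inflammatory genes in macrophages.

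The genes lie head to head on chromosome 12 of GRCm38 and are transcribed away from each other. Rsad2 (ENSMUSG00000020641) occupies chr12:26442746-26456452 on the minus strand, and Cmpk2 (ENSMUSG00000020638) occupies chr12:26469204-26479837 on the plus strand. A gap of 12751 bp separates their start sites, and GENCODE has 0 genes in that gap or overlapping either gene. The stretches just upstream of the start sites are printed because response elements of interferon-induced genes commonly lie there. They come from RefSeq (GRCm38.p6) and cover chr12:26456453-26456702 (minus strand) and chr12:26468965-26469203 (plus strand). They read 5′ to 3′ towards each gene, with an interferon-stimulated response element in capitals.
Rsad2 promoter: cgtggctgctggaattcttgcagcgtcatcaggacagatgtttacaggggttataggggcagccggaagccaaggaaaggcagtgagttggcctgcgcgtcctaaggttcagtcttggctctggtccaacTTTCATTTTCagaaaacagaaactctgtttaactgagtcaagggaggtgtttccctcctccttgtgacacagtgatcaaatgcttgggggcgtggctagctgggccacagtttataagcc
Cmpk2 promoter: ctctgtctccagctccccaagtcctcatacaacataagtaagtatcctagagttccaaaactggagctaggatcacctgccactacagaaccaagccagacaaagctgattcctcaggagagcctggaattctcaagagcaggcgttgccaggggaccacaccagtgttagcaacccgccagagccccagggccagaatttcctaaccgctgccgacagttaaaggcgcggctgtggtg

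The element was searched as GAAA, any 2 bases and GAAA again, on both strands. The Rsad2 stretch held it once, on the opposite strand, 120 to 111 bp upstream of the start, and the Cmpk2 stretch did not hold these letters. Among the 32851 RefSeq promoter windows that reach 250 bases before and 50 bases after a start, 3.443% held the element. Of 21 interferon-induced genes with a window, 13 held it in any of their windows, a count of genes and not of windows. Neither stretch held, on either strand, an LXR element written as AGGTCA, any 4 bases and AGGTCA (in 0.015% of windows) or an estrogen response element written as GGTCA, any 3 bases and TGACC (in 0.07%). A match is a description of the letters and not evidence that a factor bound there.

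Levels are given as CPM, counts per 1000000 after scaling of the libraries with edgeR's TMM factors. Rsad2 reads were ample in every library, with 305 to 5509 estimated counts, and Cmpk2 had 241 to 3101. In Vehicle macrophages Rsad2 ran from 95.6 CPM over a median of 102 to 112 CPM, and Cmpk2 from 68.0 over 74.95 to 77.6 CPM. Vehicle macrophages thus held a measurable level of both genes, and their libraries lay close together. In bulk samples such as these, fewer cells that make an RNA and less of it per cell cannot be told apart. Per kilobase of the coding transcript, the Vehicle means were 27.1 CPM for Rsad2 and 23.0 CPM for Cmpk2, a similar level for the pair.

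From high to low, Rsad2 group means ran GSK2033 (211 CPM), ICI (189), Vehicle (103), GSK2033 with 27HC (76.6), E2 (62.1), ICI with 27HC (41.1), GW3965 with the second compound (29.7), 27HC (28.4) and GW3965 (17.4). Libraries of neighbours in that order overlapped for GSK2033 and ICI and for the GW3965 combination and 27HC, and every other neighbouring pair stood apart. Cmpk2 kept the same ends, with GSK2033 (116 CPM) and ICI (101) above Vehicle (73.5) and GW3965 (13.4) lowest. In between came E2 (47.6), GSK2033 with 27HC (38.5), 27HC (21.4), ICI with 27HC (19.3) and the GW3965 combination (17.97). For Cmpk2 the libraries of 27HC overlapped those of ICI with 27HC, which overlapped those of the GW3965 combination, and the remaining neighbours stood apart. All 3 combined treatments stood lower in the order for Cmpk2 than for Rsad2.

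**Figure D1:**
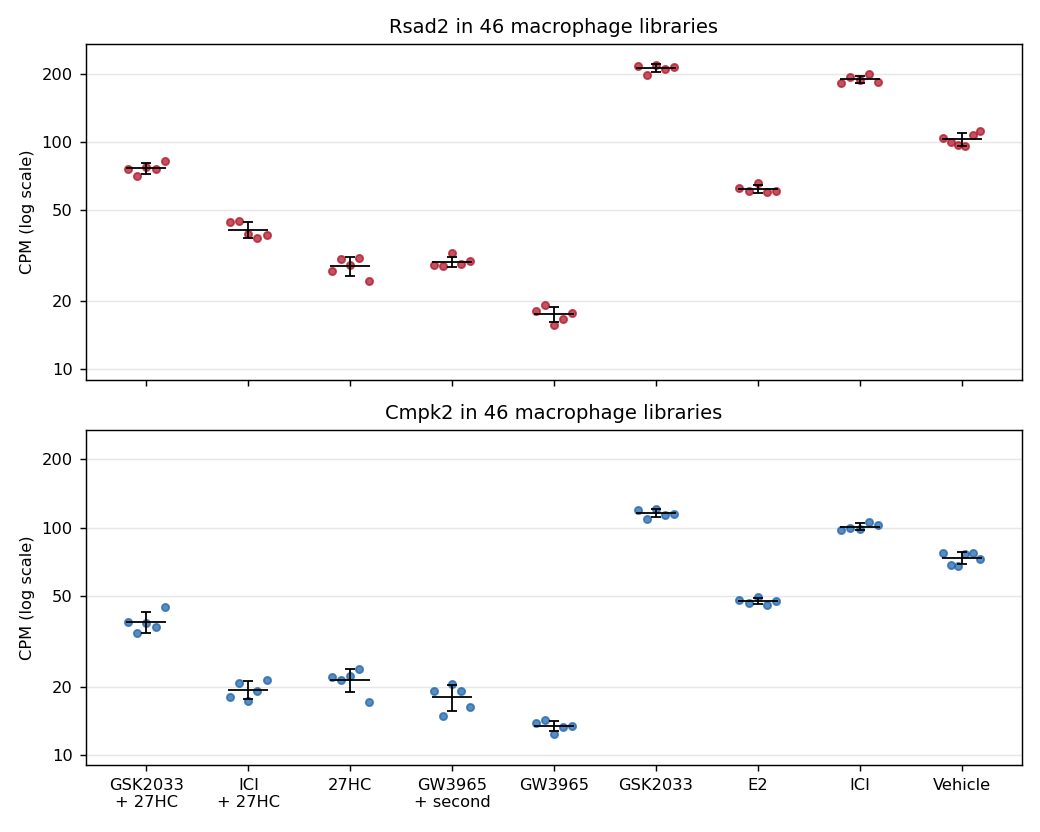
Level of Rsad2 (upper panel) and Cmpk2 (lower panel) in CPM on a log scale, with 1 point per library, horizontal bars at the group mean and whiskers of 1 SD, in 8 treated groups of 5 libraries and 6 Vehicle libraries. GSK2033 and ICI lie above Vehicle for both genes, GW3965 is lowest, and adding ICI to 27HC moves the Rsad2 points up but not the Cmpk2 points.

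Both LXR ligands lowered both genes. Rsad2 measured 26.9, 30.6, 28.9, 30.99 and 24.4 CPM in 27HC libraries and 18.1, 19.1, 15.7, 16.7 and 17.7 CPM in GW3965 libraries. Cmpk2 measured 22.04, 21.4, 22.2, 23.9 and 17.2 CPM with 27HC and 13.8, 14.3, 12.4, 13.3 and 13.4 CPM with GW3965. Every one of these values lay below the lowest Vehicle library. Rsad2 fell 3.62-fold with 27HC (log2 fold change -1.86, SE 0.054, adjusted p = 2e-30, from the quasi-likelihood test of edgeR after Benjamini-Hochberg correction across all genes) and 5.88-fold with GW3965 (log2 fold change -2.56, SE 0.057, adjusted p = 3.98e-35). Cmpk2 fell 3.44-fold with 27HC (log2 fold change -1.78, SE 0.068, edgeR adjusted p = 7.61e-26) and 5.48-fold with GW3965 (log2 fold change -2.45, SE 0.072, adjusted p = 1.58e-30). The call, here and below an adjusted p under 0.05, was common: 20% of 13838 genes were called lower with 27HC and 21.1% with GW3965. Of all genes tested, 119 had a lower log2 fold change than Rsad2 with 27HC.

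Set against GW3965, 27HC left both genes higher, and the libraries did not overlap. Rsad2 was 1.63-fold higher with 27HC than with GW3965 (log2 fold change 0.70, SE 0.062, edgeR adjusted p = 6.67e-13) and Cmpk2 1.59-fold higher (log2 fold change 0.67, SE 0.078, adjusted p = 1.67e-09). In that comparison 12.8% of genes were called higher. The LXR targets Abca1 and Abcg1, which encode cholesterol exporters, rose with both ligands: Abcg1 had a log2 fold change of 3.06 with 27HC and 4.57 with GW3965.

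The LXR antagonist GSK2033 raised both genes, and Rsad2 by more. Rsad2 measured 216, 198, 218, 209 and 214 CPM in GSK2033 libraries, and Cmpk2 measured 120.4, 109.7, 120.9, 114 and 115 CPM. All lay above the highest Vehicle library of the same gene. Rsad2 rose 2.06-fold against Vehicle (log2 fold change 1.04, SE 0.048, 95% interval 0.94 to 1.14, edgeR adjusted p = 1.73e-22), and 155 of the genes tested had a higher log2 fold change. Cmpk2 rose 1.58-fold (log2 fold change 0.66, SE 0.061, 95% interval 0.53 to 0.78, adjusted p = 2.45e-12), with 457 genes above it. Of all genes, 18.4% were called higher with GSK2033. Abca1 fell with GSK2033, with a log2 fold change of -2.46.

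GSK2033 also raised both genes when 27HC was present, without bringing them back to the Vehicle level. With both compounds Rsad2 measured 75.9, 70.8, 77.4, 76.2 and 82.6 CPM, and Cmpk2 measured 38.6, 34.3, 38.0, 36.7 and 45.0 CPM. All of these lay above every 27HC library and below every Vehicle library. Against 27HC alone, Rsad2 rose 2.70-fold (log2 fold change 1.43, SE 0.055, edgeR adjusted p = 1.29e-25) and Cmpk2 1.80-fold (log2 fold change 0.85, SE 0.071, adjusted p = 6.78e-14), where 21.1% of genes were called higher. Against Vehicle, Rsad2 fell 1.34-fold with both compounds (log2 fold change -0.42, SE 0.049) and Cmpk2 1.91-fold (log2 fold change -0.93, SE 0.064), where 26.4% of genes were called lower. All 4 LXR target genes checked, Abca1 and Abcg1 among them, were also called lower in that comparison (median log2 fold change -2.64). The part of LXR in the remaining fall of the pair was not tested.

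Read the other way, 27HC still lowered both genes under the antagonist. Against GSK2033 alone, Rsad2 fell 2.76-fold with both compounds (log2 fold change -1.46, SE 0.051, edgeR adjusted p = 5.51e-27) and Cmpk2 3.01-fold (log2 fold change -1.59, SE 0.066, adjusted p = 3.31e-24), with no overlap of libraries and 18.8% of genes called lower. The log2 difference that GSK2033 made to Rsad2 was larger by 0.39 with 27HC than without it (SE 0.073, 95% interval 0.24 to 0.54, adjusted p = 5.97e-05 for the interaction in edgeR). For Cmpk2 the same quantity was 0.19 (SE 0.093) and did not pass the adjustment (adjusted p = 0.158). The interaction was called positive for 9.34% of genes.

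ICI added to 27HC separated the genes. Rsad2 measured 44.5, 44.7, 39.4, 37.9 and 38.9 CPM with ICI and 27HC, all above the 27HC libraries. Cmpk2 measured 18.1, 20.8, 17.2, 19.2 and 21.4 CPM with both compounds, within the range of the 27HC libraries. Rsad2 rose 1.45-fold against 27HC alone (log2 fold change 0.54, SE 0.057, 95% interval 0.42 to 0.65, edgeR adjusted p = 1.43e-10), where 16.8% of genes were called higher. The log2 difference in Cmpk2 was -0.15 (SE 0.075, 95% interval -0.30 to 0.01) and was not called (edgeR adjusted p = 0.132). Without the fifth 27HC library, which had the lowest Cmpk2 of its group, that difference was -0.22 and was called (edgeR adjusted p = 0.0166). Both genes stayed below Vehicle with ICI and 27HC, Rsad2 by 2.5-fold (log2 fold change -1.32, SE 0.052) and Cmpk2 by 3.81-fold (log2 fold change -1.93, SE 0.069), both called in edgeR's test beside 26.4% of genes called lower.

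A second compound added to GW3965 raised both genes above the level with GW3965 alone. Rsad2 measured 28.6, 28.5, 32.4, 29.0 and 29.9 CPM with the combination, and Cmpk2 measured 19.2, 14.8, 20.5, 19.1 and 16.3 CPM. All lay above the GW3965 libraries, for Cmpk2 by a narrow margin. Rsad2 rose 1.70-fold (log2 fold change 0.77, SE 0.061, edgeR adjusted p = 1.37e-13) and Cmpk2 1.34-fold (log2 fold change 0.42, SE 0.079, adjusted p = 6.98e-05), where 7.93% of genes were called higher. The combination remained below Vehicle, 3.46-fold for Rsad2 (log2 fold change -1.79, SE 0.053) and 4.09-fold for Cmpk2 (log2 fold change -2.03, SE 0.069), beside 24.4% of genes called lower.

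The estrogen receptor ligands alone were part of how the genes were chosen, and their values stand as a description. Rsad2 measured 182, 193, 187, 199 and 183 CPM with ICI, and Cmpk2 measured 98.2, 100.0, 98.6, 106 and 103 CPM. With E2, Rsad2 measured 63.0, 60.8, 65.7, 59.9 and 61.1 CPM, and Cmpk2 measured 48.3, 46.8, 49.6, 45.8 and 47.5 CPM. All ICI libraries lay above and all E2 libraries below the Vehicle libraries for both genes. Against Vehicle the fold was 1.84 higher with ICI and 1.65 lower with E2 for Rsad2, and 1.38 higher with ICI and 1.55 lower with E2 for Cmpk2. Of the 4 LXR target genes checked, 2 were called higher and 0 lower with ICI against Vehicle. Among all genes, 13.9% were called higher with ICI and 2.49% lower with E2, shares from which nothing is read about the pair. These comparisons and those of 27HC, GW3965 and GSK2033 share the 6 Vehicle libraries. On the log2 scale the ICI difference for Rsad2 was 0.54 with 27HC and 0.88 without it, and for Cmpk2 -0.15 with 27HC and 0.46 without it. The change in the ICI difference was not tested, because the rule used ICI.

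The balance of the pair was measured inside each library as log2 CPM of Cmpk2 minus log2 CPM of Rsad2, a quantity on which library scaling has no influence. It was -0.97, -1.04, -1.02, -1.05 and -0.88 with GSK2033 and 27HC, -1.30, -1.11, -1.19, -0.98 and -0.86 with ICI and 27HC, and -0.29, -0.52, -0.38, -0.37 and -0.50 with 27HC alone. Libraries of GSK2033 alone ran from -0.90 to -0.84, and those of Vehicle from -0.62 to -0.32. GSK2033 alone, GSK2033 with 27HC and ICI with 27HC thus had less Cmpk2 for each Rsad2 than 27HC or Vehicle, with no overlap.

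In 7 comparisons tested by exact two-sided permutation of libraries, with p adjusted over the 7, the balance shifted in 4. The shift was -0.58 for GSK2033 with 27HC against 27HC (exact adjusted p = 0.0139, n = 5 each), -0.68 for ICI with 27HC against 27HC (exact adjusted p = 0.0139, n = 5 each), -0.36 for GW3965 with the second compound against GW3965 (exact adjusted p = 0.0139, n = 5 each) and -0.38 for GSK2033 against Vehicle (exact adjusted p = 0.0139, n = 5 and 6). Each of these 4 had the smallest unadjusted p its design allows, 0.00794 for 5 against 5 libraries and 0.00216 for 5 against 6, and in each the libraries of the groups did not overlap. For the agonists alone no shift passed. The shift was 0.07 for 27HC against Vehicle (exact adjusted p = 0.331), 0.11 for GW3965 against Vehicle (exact adjusted p = 0.1) and -0.04 for 27HC against GW3965 (exact adjusted p = 0.437), with overlapping libraries. Without the fourth Vehicle library the GW3965 shift was 0.14 and passed (exact adjusted p = 0.0111). As a description, ICI differed from Vehicle by -0.42 and E2 from Vehicle by 0.10. The pooled SD within groups was 0.0988 for the balance, and 0.0912 for log2 CPM of Rsad2 and 0.119 for that of Cmpk2.

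**Figure D2:**
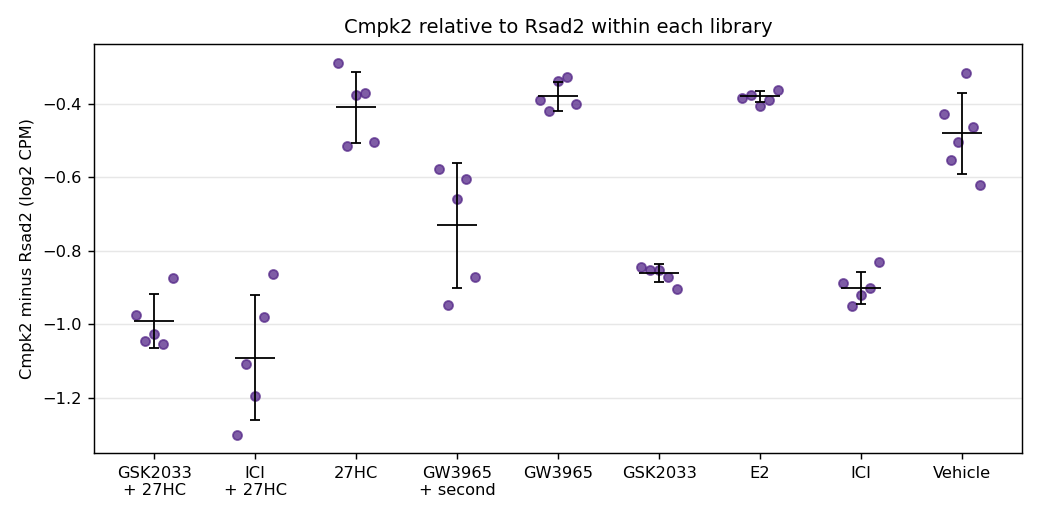
Cmpk2 minus Rsad2 in log2 CPM for each library (points), with the group mean (horizontal bar) and 1 SD (whiskers), in 8 treated groups of 5 libraries and 6 Vehicle libraries. GSK2033, ICI and their combinations with 27HC lie near -0.86 to -1.09, the GW3965 combination at -0.73, and 27HC, GW3965, E2 and Vehicle between -0.48 and -0.38.

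The other interferon-induced antiviral genes went the same way with the LXR ligands. Of 27 such genes on a list of known targets that leaves out the pair, all were tested, and all 27 fell with 27HC (median log2 fold change -1.45) and with GW3965 (median -2.07). Among all genes tested, 20% were called lower with 27HC and 21.1% with GW3965. The median over all genes tested lay within 0.01 of 0 in each comparison. Among the falls with 27HC were Ifit1, whose product binds viral RNA caps (-2.54), Ifit2 (-3.08) and Ifit3b (-3.20) of the same family, Oas3, which makes the activator of RNase L (-1.50), and the ubiquitin-like modifier Isg15 (-2.19). Ifit genes are close relatives of one another, so reads may be split between them uncertainly. Rsad2 and Cmpk2 lay inside the spread of the list, with 10 of its 27 genes lower than either with 27HC and 9 with GW3965.

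GSK2033 raised 23 of the 27 genes and lowered 0 against Vehicle (median 0.35), and raised 25 and lowered 0 when added to 27HC (median 0.66). Of all genes, 18.4% were called higher in the first of these comparisons and 21.1% in the second. Against Vehicle, Rsad2 had a higher log2 fold change than all 27, the highest being Isg20 at 1.03, and Cmpk2 was above 20 of them. When GSK2033 was added to 27HC, 7 genes of the list exceeded Rsad2, up to Ifit1 at 1.78, and Isg15 had 1.65. All 27 remained lower with GSK2033 and 27HC than with Vehicle (median -0.76), beside 26.4% of all genes called lower.

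Few genes of the list rose when ICI was added to 27HC. Bst2, which tethers virus particles to the cell surface, was singled out after its values were seen. It was the 1 gene of 27 called higher (0.15, SE 0.043, edgeR adjusted p = 0.00434), beside 16.8% of all genes. Another 13, among them Oas3 (-0.31) and Ifit3b (-0.40), fell, beside 17.4% of all genes, and the median of the list was -0.17. The log2 fold change of Rsad2 (0.54) lay above all 27, and that of Cmpk2 (-0.15) above 17. The second compound added to GW3965 raised 15 of 27 and lowered 0 (median 0.21), beside 7.93% of all genes called higher. Again Rsad2 (0.77) lay above all 27, next to Ifit3b at 0.73. As a description, the list had a median of 0.08 with ICI against Vehicle, with both members of the pair above all 27, and -0.44 with E2.

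**Figure D3:**
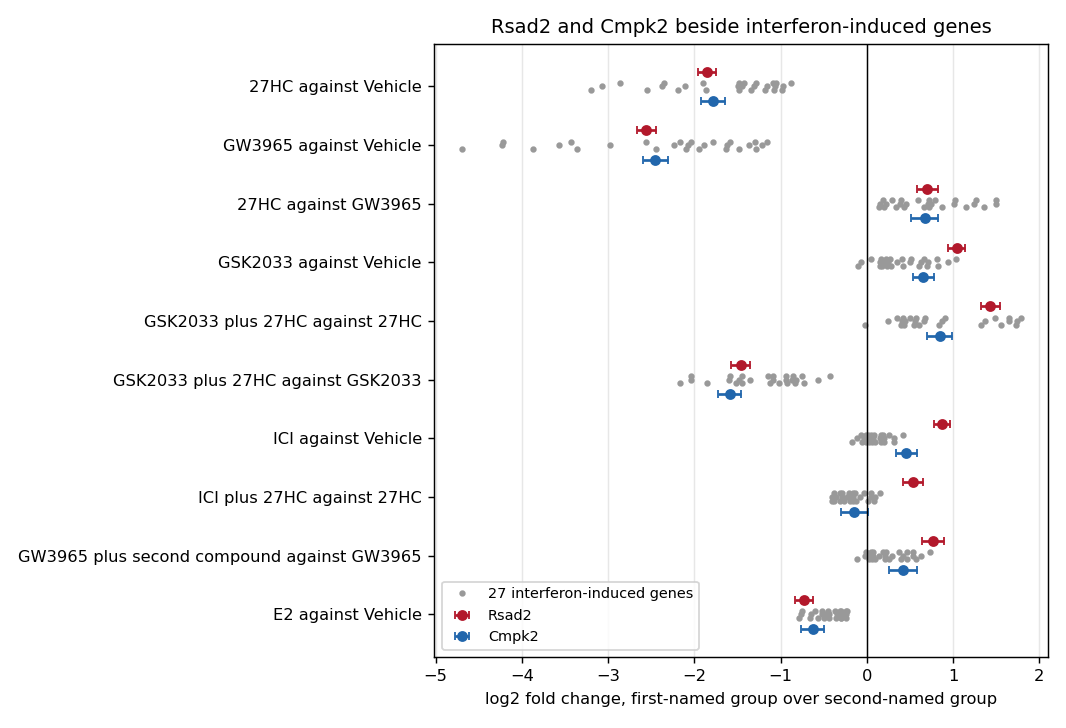
Log2 fold change of Rsad2 (red) and Cmpk2 (blue) with 95% intervals, beside 27 other interferon-induced genes (grey points), for 10 comparisons named on the vertical axis as first group against second group. The pair lies within the grey points with 27HC and with GW3965. Rsad2 lies to the right of all grey points where ICI or GSK2033 alone, ICI with 27HC, or the GW3965 combination is the first group. With GSK2033 alone and with the GW3965 combination, the nearest grey point falls inside the Rsad2 interval. ICI alone and E2 alone were used in choosing the genes.

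Of the interferon ligands, Ifnb1 had at most 5 estimated counts in any library and Ifng at most 4, so neither was tested. Their group means were highest with GSK2033, 0.0975 CPM for Ifnb1 and 0.0871 for Ifng, against 0.0168 and 0.0135 CPM with Vehicle. Whether either changed cannot be told from so few counts. Ifna1, Ifna2 and Ifna4 had no row under those symbols in the count table. Of 4 receptor genes tested, Ifnar1, a chain of the type I interferon receptor, had a log2 fold change of 0.10 with 27HC (SE 0.031) and -0.26 with GSK2033 (SE 0.032), both called, and -0.02 with GW3965, not called. Ifnar2, its partner chain, fell with GSK2033 (-0.33) and with GSK2033 added to 27HC (-0.59), and had values of -0.04 with 27HC and -0.01 with GW3965 that were not called. The type II receptor chain Ifngr2 fell with 27HC (-0.20) and with GW3965 (-0.38), whereas its partner Ifngr1 rose with GW3965 (0.30, SE 0.02) and had 0.03 with 27HC, not called. All 4 receptor genes fell with GSK2033 against Vehicle, as did 17.9% of all genes, in the comparison in which Rsad2 and Cmpk2 rose.

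Of 12 genes for signal transducers and interferon regulatory factors, 9 fell and 2 rose with 27HC, and the same numbers held for GW3965. Of all genes, 20% were called lower with 27HC and 21.1% with GW3965. Irf7, which amplifies interferon production, had a log2 fold change of -2.10 with 27HC (SE 0.044) and -3.45 with GW3965 (SE 0.048). Stat2, a transducer of type I interferon signals, had -1.60 with 27HC, Irf1 had -0.87 and Irf9, a DNA-binding factor of that pathway, -0.44, all called in edgeR's test. With GSK2033 against Vehicle 6 rose and 3 fell, beside 18.4% of all genes called higher and 17.9% lower: Stat2 (0.22), Irf1 (0.27) and Irf9 (0.08) rose and Irf7 fell (-0.15, SE 0.042). ICI added to 27HC lowered 8 of the 12 and raised 1, beside 17.4% of all genes called lower and 16.8% higher, with Irf7 at -0.63, Stat2 at -0.23 and Irf1 at -0.39, where Rsad2 rose.

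Of 15 tested genes of nucleic acid and Toll-like receptor sensing, 8 fell and 3 rose with 27HC (median -0.26), where 20% of all genes were called lower and 20.3% higher. The log2 fold change of the adaptor gene Myd88 was -0.45. Among endosomal receptors for nucleic acids, Tlr7 had -0.57, Tlr9 -1.02 and Tlr3 -0.74. Of 10 inhibitors of interferon signalling, 6 fell and 1 rose with 27HC (median -0.43). Usp18, a protease that removes Isg15 and blocks the type I receptor, had -1.89 with 27HC, -2.92 with GW3965 and 0.67 with GSK2033. Socs1 had -1.10, the DNA exonuclease Trex1 -1.31 and the RNA editor Adar -0.83 with 27HC. Usp18 also rose with ICI and 27HC against 27HC (0.22, SE 0.064, edgeR adjusted p = 0.00622), in the direction of Rsad2 but by less.

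Of 24 other genes of pyrimidine and dNTP supply tested, 10 rose and 2 fell with 27HC (median log2 fold change 0.12), where 20.3% of all genes were called higher and 20% lower. Cmpk1, the cytosolic enzyme that phosphorylates the same nucleotides as Cmpk2, rose with 27HC (log2 fold change 0.24, SE 0.04, edgeR adjusted p = 2.86e-06) and had 0.04 with GW3965 and 0.09 with GSK2033, not called. Ctps, which makes CTP, had -0.03 with 27HC, not called. Tk1, the thymidine kinase of dividing cells, rose with 27HC (0.67), as did Dtymk, the next kinase on that route (0.36). Dck, the deoxycytidine kinase that makes the dCMP used by Cmpk2, was the gene of this list that fell most, with -0.88 for 27HC and -1.17 for GW3965 (SE 0.04 each). The other one called lower was Tk2, the mitochondrial thymidine kinase, named after its values were seen, which fell by 0.21 on the log2 scale with 27HC.

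Of 12 genes for mitochondrial DNA synthesis and the NLRP3 inflammasome, 3 fell and 1 rose with 27HC, and 5 fell and 1 rose with GW3965. Over all genes, 20% were called lower and 20.3% higher with 27HC, and 21.1% lower and 23.1% higher with GW3965, so the list's 3 falls with 27HC were near the share over all genes. Nlrp3, the sensor, rose with 27HC (log2 fold change 0.18, SE 0.044) and fell with GW3965 (-0.58, SE 0.046). The cytokine genes Il1b (-2.58 with 27HC and -5.06 with GW3965) and Il18 (-0.80 and -1.11 in that order) and Casp1, the protease that cleaves their products (-0.40 and -0.35 in that order) fell with both. With GSK2033, Casp1 rose (0.49) and Il1b fell (-0.64).

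Of 12 tested genes whose products bind viperin or load its iron-sulfur cluster, 5 rose and 3 fell with 27HC, and 6 rose and 2 fell with GW3965. Over all genes, 20.3% were called higher and 20% lower with 27HC, and 23.1% higher and 21.1% lower with GW3965. The numbers of falls were thus near the share over all genes. The 3 that fell with 27HC belong to sterol synthesis: Sqle (log2 fold change -1.95, SE 0.052), Fdps, the farnesyl diphosphate synthase that viperin is known to inhibit (-1.50, SE 0.062), and Lss (-0.60). The cytosolic iron-sulfur assembly gene Ciao1 had -0.03 and was not called; Lss and Ciao1 are named after their values were seen. Fdps rose with GW3965 (0.33, SE 0.056) and fell with GSK2033 (-1.27), opposite to Rsad2 in each of those comparisons. Hadhb, the beta subunit of the trifunctional protein that viperin binds, rose with 27HC (0.38) and with GW3965 (0.44), and Vapa, an endoplasmic reticulum membrane protein, rose with both (0.14 and 0.15 in that order).

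Genes with the most similar pattern were sought by the root mean square (RMS) difference between centred group means of log2 CPM over the 9 groups. Nearest to Rsad2 were Phf11d (0.249), Usp18 (0.252), Cmpk2 (0.267), Oasl1 (0.281), H2-Q5 (0.287), Isg20 (0.308), Phf11b (0.345) and Gm6904 (0.346). Nearest to Cmpk2 were Gbp2 (0.193), Tnfsf10 (0.208), ENSMUSG00000062783, which has no symbol in the annotation (0.212), Phf11d (0.219), Isg20 (0.221), Ifi47 (0.222), Mx2 (0.226) and H2-T24 (0.227). The neighbour was thus at rank 3 among 13837 genes for Rsad2, while Rsad2 was only rank 20 for Cmpk2, where the median RMS over all genes was 1.19 for Rsad2 and 1.10 for Cmpk2. The 9 groups include ICI, E2 and Vehicle, which were used in choosing the genes, so the ranks are descriptions. Phf11d, Phf11b and the H2 genes have close relatives with which reads may be shared, so their values are uncertain. H2-Q5, of the class I histocompatibility family, was the gene on the Rsad2 list that rose with ICI and 27HC against 27HC by more than Rsad2, at 0.75.

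With 27HC and with GW3965 the 2 tested neighbours of the pair had smaller log2 fold changes than the pair. Rnf144a, a ubiquitin ligase gene 27491 bp away and the nearest protein-coding neighbour, ran from 0.328 to 2.89 CPM. Its log2 fold change was -0.28 with 27HC (SE 0.27, edgeR adjusted p = 0.457), -0.14 with GW3965 (adjusted p = 0.723) and 0.43 with GSK2033 (adjusted p = 0.212), intervals that are wide because it had at most 60 counts. It was called lower with the GW3965 combination against Vehicle (-0.77, SE 0.28, edgeR adjusted p = 0.0203). Sox11, a transcription factor gene 854426 bp away on the Cmpk2 side, ran from 8.70 to 21.3 CPM and fell with 27HC (-0.91, SE 0.067) and with GW3965 (-0.58, SE 0.066). With GSK2033 it had 0.12, not called, and its interaction of GSK2033 with 27HC was 0.49 (SE 0.094, edgeR adjusted p = 8.89e-05), beside 0.39 for Rsad2. With ICI against Vehicle it fell (-0.55, SE 0.065), where the pair was higher. The pseudogenes Gm46344, Gm47860, Gm47750 and Gm9321 had at most 3 counts in any library and were not tested.

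Of the 10 macrophage markers all were present. Their summed level was 15100 to 16500 CPM with 27HC, 11100 to 11700 with GW3965, 16800 to 17900 with GSK2033, 13300 to 14800 with GSK2033 and 27HC, 10700 to 11400 with ICI and 27HC, 9360 to 9940 with the GW3965 combination, 22300 to 23800 with E2, 14800 to 15500 with ICI and 21200 to 23100 CPM with Vehicle. It was thus lower in every treated group but E2, also where Rsad2 and Cmpk2 were higher. Single markers went both ways. With 27HC 6 of the 10 were called lower and 2 higher, beside 20% and 20.3% of all genes. With GSK2033 8 were called lower and 1 higher, beside 17.9% and 18.4% of all genes. Cd68 was higher with both, with log2 fold changes of 0.25 and 0.24 in that order. Of 7 markers of plasmacytoid dendritic cells, known for making interferon, 6 were in the table and summed to 44.6 to 93.8 CPM over all libraries, nearly all from Tcf4. Their defining Siglech had at most 4 counts and Ly6d at most 3, at or near 0. Cox6a2, also on that list, averaged 0.347 to 3.69 CPM over the groups and rose in some comparisons in which Rsad2 rose. Its log2 fold change was 2.04 with GSK2033 against Vehicle and 3.38 with GSK2033 and 27HC against 27HC. It was 2.65 with ICI and 27HC against 27HC, and 1.98 with the GW3965 combination against GW3965. In other comparisons Cox6a2 and Rsad2 went opposite ways. Cox6a2 was lower with 27HC than with GW3965 (-0.99), where Rsad2 was higher. Against Vehicle it was higher with GSK2033 and 27HC (2.76), ICI and 27HC (2.03) and the GW3965 combination (2.35), where Rsad2 fell. With GSK2033 and 27HC against GSK2033 it was higher (0.72), where Rsad2 also fell. It was also higher with ICI against Vehicle (1.55), and was not called with 27HC (-0.62) or GW3965 (0.37) against Vehicle. Tcf4, the other tested marker of that list, had -0.65 with GSK2033 against Vehicle and -0.62 with GSK2033 and 27HC against 27HC. It had -0.35 with ICI and 27HC against 27HC, -0.12 with the GW3965 combination against GW3965, not called, and -0.3 with ICI against Vehicle. Against Vehicle it had -0.28 with 27HC and -0.52 with GW3965. The sum of the list averaged 56.3 CPM with GSK2033 and 48.9 with GSK2033 and 27HC, against 85.3 CPM with Vehicle. Markers of other dendritic cells (6 genes) summed to at most 2.13 CPM, of neutrophils (8 genes) to at most 3.13 CPM and of lymphocytes (7 genes) to at most 1.21 CPM. Stromal markers (8 genes) summed to 3370 to 3810 CPM with 27HC, 3240 to 3880 with GW3965, 3710 to 4530 with GSK2033, 2760 to 3160 with ICI and 27HC and 4270 to 5050 CPM with Vehicle, most of it Col1a1, Sparc and Col1a2, while Dcn stayed under 1 CPM in group means and Lum had at most 4 counts. The part of Cox6a2, Tcf4 and of macrophage and stromal marker levels in the results was not tested. Mitochondrially encoded genes took 1.80 to 2.05% of counts with 27HC, 2.03 to 2.28% with GW3965, 1.28 to 1.48% with GSK2033 and 1.43 to 1.68% with Vehicle. Their share was 1.75 to 2.09% with ICI, where the pair was higher than with Vehicle. With GSK2033 and 27HC, where the pair was lower, the share was 1.21 to 1.51%. The part of this share in the results was not tested. With those genes left out before scaling, the log2 fold change of Rsad2 was -1.85 with 27HC, -2.57 with GW3965 and 1.04 with GSK2033 against Vehicle.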

How the data were processed

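RNA was extracted from bone marrow-derived macrophages, and stranded libraries of polyadenylated RNA were sequenced in 1 pool on 3 lanes as single reads of 100 nt, with bcl2fastq 2.20 for demultiplexing, per the labels' protocols. The authors deposited estimated counts per gene, made with kallisto 0.44.0 on GRCm38, per the submitters' processing notes. Whether they were corrected for transcript length is not given in the sources used here. GENCODE M21 gave symbols for 24243 of 24671 identifiers.

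Estimated counts were rounded. edgeR 4.0.16 kept 13838 genes (filterByExpr), computed TMM factors and fitted a robust quasi-likelihood model with 1 mean per group over all 46 libraries (37 residual degrees of freedom, biological coefficient of variation 7.55%). p-values were Benjamini-Hochberg adjusted over all genes tested. Log2 CPM used an added count of 0.5. Alternatives were DESeq2 1.42.0, its size factors in edgeR, no filter, a replicate block, the compared groups alone, no mitochondrially encoded genes, and each library left out. No duplicate libraries were found: the chi-square per degree of freedom was 3.908 to 12.26 over 95 replicate pairs. Replicate numbers gave no sign of pairing in the correlations given below.

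Members, gene lists and tests were chosen with earlier results of these data known, so list counts are descriptions. Besides fixed genes of the pathway, the text names up to 4 genes per list with the smallest p for 27HC against Vehicle, the 8 genes most alike each member and the 3 nearest genes on each side. Intervals cover the spread between libraries. 1 gene that this rule would name is not reported here.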

Additional observations from a re-analysis of the deposited data

Results flagged for a closer look

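The Rsad2 difference made by GSK2033 was larger with 27HC than without it. The log2 fold change of GSK2033 with 27HC against 27HC was 1.43, that of GSK2033 against Vehicle was 1.04, and the difference between them was 0.391 by a test of the interaction itself (edgeR's quasi-likelihood test, adjusted p = 5.97e-05). Libraries of the groups compared did not overlap in either comparison. The same quantity for Cmpk2 did not pass (0.191, adjusted p = 0.158). A positive interaction was called for 9.34% of genes. It was also called positive for 24 of the 27 other interferon-induced genes, with a median of 0.39, and 13 of them lay below and 14 above Rsad2. A search for single libraries far from the rest of their group, over 27 sets of libraries (the pair and their balance in 9 groups), found 0.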

How the results depend on the processing

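Over 49 results, none changed direction, and all 266 values under settings other than leaving out a library were rated the same. For a tested value this meant keeping its side of the threshold. Values of ICI or E2 against Vehicle, and the balance with the replicate block, had to move by less than the spread between libraries. A number of genes called had to stay within a set fold of its main value. Of 550 values with a library left out, 548 were rated the same. The exceptions passed the threshold only without 1 library: Cmpk2 with ICI and 27HC against 27HC (without the fifth 27HC library -0.218, range over all left out -0.218 to -0.101), and the balance for GW3965 against Vehicle (without the fourth Vehicle library 0.139, range 0.078 to 0.139). The cause was not tested. The replicate numbers gave no sign of pairing: over 180 same-numbered pairs of libraries in different groups, deviations correlated with r from -0.0797 to 0.101, median 0.00764. With the replicate block, Rsad2 with 27HC against Vehicle was -1.83, and with ICI and 27HC against 27HC 0.535. For the balance, 5 pairs cannot give an exact p below 0.0625, so with the replicate block its shifts were compared by size only. Rsad2 had at least 305 counts in a library, so depth did not limit the pair, whereas Ifnb1 and Rnf144a were near the lower limit.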
